A study of Mus musculus with 10 samples.

Results

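The alpha-defensin genes of the mouse were examined in RNA-seq libraries of intestinal crypts from wild-type and Arid3a-deficient animals. Members were all genes of the deposited tables whose symbol begins with Defa followed by a digit or a hyphen, which gave 39 of 54838 genes. Of these, 22 were annotated as protein-coding and 17 as pseudogenes, and all lay on chromosome 8 of GRCm38, between positions 19210462 and 21750000. Membership was set by symbol alone, but the members were chosen with earlier results of these data known. A mean expected count above 10 over all 10 libraries was reached by 24 members. The other 15 were Defa27, with 2.25 to 15.65 counts per library, 5 pseudogenes with at most 5 counts in any library, and 9 members listed at 0 in every library.

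The libraries came from 5 WT and 5 Arid3a cKO mice, 1 per animal, which the labels call WT and KO. The cKO animals carried Arid3a fl/fl and a tamoxifen-inducible Cre driven by the Villin promoter (VillinCre-ERT2+/-), which acts in the intestinal epithelium and not in other cells of the tissue. Both genotypes received tamoxifen on 3 consecutive days, and jejunal crypts were taken 1 month after the first injection, once villi had been scraped off. The sample descriptions carry a code whose letters differ by genotype and are shared within it. What the letters stand for is not explained, and whatever they mark cannot be told apart from genotype. Library totals ran from 27050455 to 28152743 expected counts in WT and from 28314069 to 31053622 in cKO, so every cKO library was deeper than every WT library. Arid3a, the targeted transcription factor, stood at 1.91, 2.07, 2.75, 2.68 and 2.69 CPM (counts scaled per 1e6 by TMM library size) in WT replicates 1 to 5. It stood at 0.303, 0.516, 0.490, 0.884 and 1.17 CPM in cKO replicates 1 to 5. The genotypes did not overlap, and the log2 fold change was -1.84 ± 0.32 (SE; adjusted p = 0.00204 by the quasi-likelihood test of edgeR, Benjamini-Hochberg over all genes).

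Alpha-defensins are small cationic peptides, rich in disulfide bonds, that damage bacterial membranes. In the mouse small intestine they are made by Paneth cells at the crypt base, stored in their granules and released into the crypt lumen. They are translated as prodefensins, and in mice the matrix metalloproteinase MMP7 cuts off the pro-segment to give the active peptide. The genes arose by repeated duplication and remain near copies of each other, so a short read can match several of them.

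How alike the members are is seen in their coding sequences, which bear on every single-gene value below. The 4 sequences that follow, from GENCODE transcripts on GRCm38, belong to the most abundant members. Capitals mark bases that differ from Defa24. Each runs from start to stop codon over 2 exons, and 172 of the 282 coding bases lie in the first exon.
Defa24: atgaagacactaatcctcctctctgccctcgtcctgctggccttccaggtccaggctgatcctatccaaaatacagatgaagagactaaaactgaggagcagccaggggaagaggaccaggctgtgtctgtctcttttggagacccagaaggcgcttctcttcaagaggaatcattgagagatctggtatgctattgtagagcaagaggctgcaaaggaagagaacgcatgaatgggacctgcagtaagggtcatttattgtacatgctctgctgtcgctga
Defa17: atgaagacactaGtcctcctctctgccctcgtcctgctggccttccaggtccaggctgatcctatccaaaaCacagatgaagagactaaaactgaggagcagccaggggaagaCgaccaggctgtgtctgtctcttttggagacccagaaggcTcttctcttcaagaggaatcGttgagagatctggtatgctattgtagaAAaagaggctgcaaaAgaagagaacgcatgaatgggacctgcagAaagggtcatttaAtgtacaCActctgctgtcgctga
Defa30: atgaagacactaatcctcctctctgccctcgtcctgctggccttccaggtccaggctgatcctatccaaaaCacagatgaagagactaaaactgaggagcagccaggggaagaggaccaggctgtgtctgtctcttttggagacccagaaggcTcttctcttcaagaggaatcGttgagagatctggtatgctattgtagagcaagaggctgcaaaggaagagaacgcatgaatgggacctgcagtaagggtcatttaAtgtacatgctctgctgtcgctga
Defa23: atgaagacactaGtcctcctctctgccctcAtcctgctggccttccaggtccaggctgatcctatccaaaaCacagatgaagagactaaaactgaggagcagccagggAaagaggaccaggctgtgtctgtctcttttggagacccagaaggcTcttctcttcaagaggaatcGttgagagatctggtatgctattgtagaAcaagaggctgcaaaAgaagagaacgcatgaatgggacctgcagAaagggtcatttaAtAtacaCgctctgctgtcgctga

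Defa24 (chr8:21734494-21735471, plus strand) and Defa30 (chr8:21134642-21135598, plus strand) differed at 4 coding bases. Defa17 (chr8:21655780-21656735, plus strand) and Defa23 (chr8:21055047-21056016, plus strand) each differed from Defa24 at 12 coding bases, of which 8 and 7 lay in the second exon. Defa3 (chr8:21287409-21288377) had the coding sequence of Defa17 letter for letter, and Defa31 (chr8:21191614-21192549) had that of Defa23. The same held for Defa36 (chr8:21427411-21428391) and Defa37 (chr8:21565386-21566349), whose shared sequence is shown next because the pair gave unlike results.
Defa37: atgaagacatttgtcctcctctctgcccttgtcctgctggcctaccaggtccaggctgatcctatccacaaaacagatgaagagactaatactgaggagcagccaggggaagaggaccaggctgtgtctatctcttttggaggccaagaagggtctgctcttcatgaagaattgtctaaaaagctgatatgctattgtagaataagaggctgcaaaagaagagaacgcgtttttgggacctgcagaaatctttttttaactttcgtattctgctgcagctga

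Defa2 and Defa33 also coded the same sequence, as did Defa20 and Defa32. Among the 20 protein-coding members above 10 mean counts there were thus 15 distinct coding sequences, and 10 members shared theirs with another. Reads within such a coding sequence cannot be assigned to 1 of the pair, so the split rests on the untranslated ends. The share of 99-base windows of a member's transcript that occur in no other annotated gene measures this. It was 100% for Defa24, 99.3% for Defa30 and 98.5% for Defa26. It was 10.9% for Defa23, 9.36% for Defa17, 5.28% for Defa36, and 0% for Defa31, Defa37, Defa2 and Defa33. Defa34 and Defa5, which shared a coding sequence with no other member, had only 24.9% and 11.5%.

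The summed Defa count was lower in cKO than in WT crypts. RSEM, the program the authors used to count reads, divides a read among the genes it matches, and the sum does not depend on how it divides reads between members. Alpha-defensin-like genes under other symbols, described below, are not in the sum. Defa29, Defa26, Defa5 and Defa34 share windows with some of these genes, and that division can still move the sum. The Defa members together took 1.79%, 1.75%, 2.27%, 1.81% and 1.86% of the expected counts in WT replicates 1 to 5. In cKO replicates 1 to 5 they took 1.23%, 1.14%, 1.26%, 0.995% and 0.897%. Every cKO library was below every WT library, and WT replicate 3 stood above the other WT animals. The mean share was 1.90% ± 0.21 in WT and 1.11% ± 0.16 in cKO (SD, n = 5 each), with p = 0.00794 in an exact permutation test run two-sided, which is the smallest value that 5 against 5 animals allow.

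Entered as 1 feature among all genes, the sum had a log2 fold change of -0.65 ± 0.12 (SE; adjusted p = 0.00249 by the same test over all features), on counts scaled by TMM. Of all features tested in that fit, 12.7% were lower in cKO by the same rule. In scaled counts the sum averaged 18158 ± 2130 CPM over WT and 11567 ± 1628 CPM over cKO animals (SD, n = 5 each). Without WT replicate 3 the log2 fold change was -0.58, with an adjusted p of 0.0067 in the same edgeR fit. In whole crypts, fewer Paneth cells and less defensin RNA per Paneth cell cannot be told apart.

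**Figure D1:**
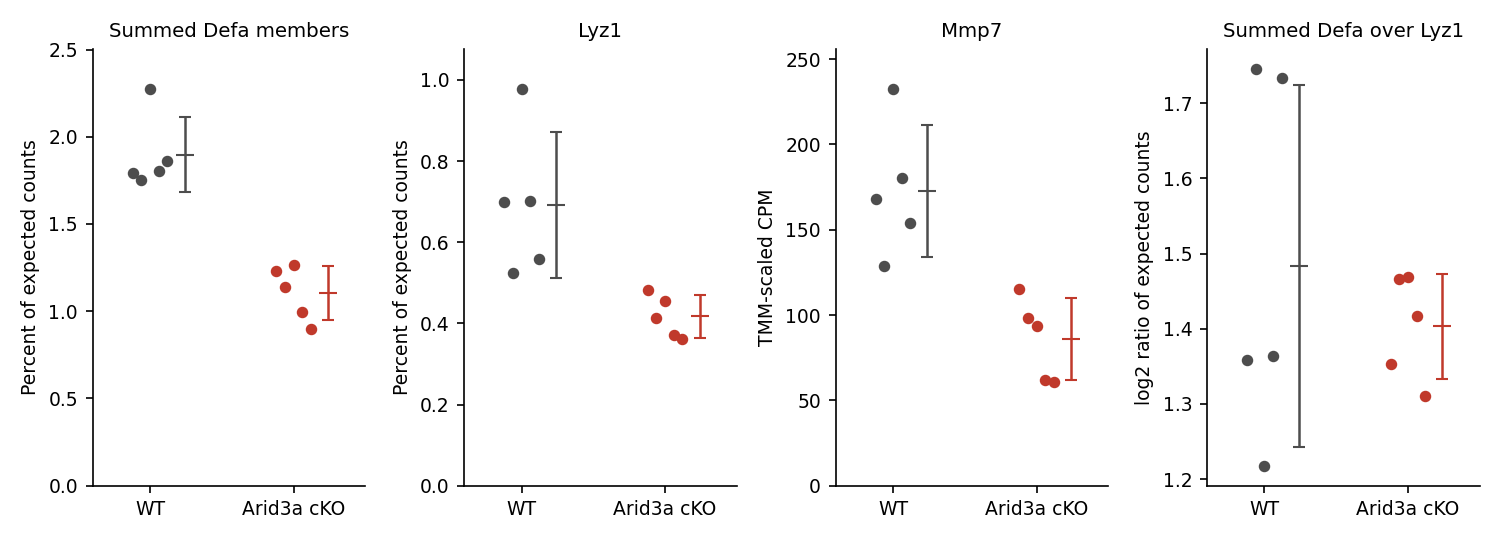
Points are single animals in WT and Arid3a cKO crypts, and the bar beside them is the mean with SD (n = 5 each). From left to right the y axes show the summed Defa members and Lyz1 as percent of expected counts, Mmp7 in TMM-scaled CPM, and the log2 ratio of the Defa sum to Lyz1, on an axis that does not start at 0. The first 3 panels separate the genotypes, while the cKO ratios of 1.31 to 1.47 lie inside the WT range of 1.22 to 1.75.

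Enterocyte markers rose in the same cKO libraries, all 10 of 10 on a list of enterocyte genes, and their summed level, in CPM without TMM scaling, ran from 1577 to 7278 in WT and from 8413 to 15835 in cKO. Markers of stem cells fell for 4 of 5. Goblet markers were lower for 1 of 8 (Atoh1), enteroendocrine markers higher for 3 of 6, and tuft markers higher for 2 of 4 tested. Of all genes tested, 12.7% were lower and 15.6% higher by the same rule, an adjusted p below 0.05 in edgeR. Markers of B and plasma cells had a summed level of 19.0 to 51.3 CPM in WT and 5.97 to 14.7 CPM in cKO, again without TMM scaling, so the genotypes did not overlap. The median log2 fold change of these 4 genes was -1.91, with all 4 below 0, and 1 of them, Jchain of plasma cells (-1.95, adjusted p = 0.00196, edgeR), passed, while 3 had an unadjusted p below 0.05. Of the other immune and stromal markers, 1 of 5 stromal genes was lower by edgeR, while 0 of 5 T cell and 0 of 3 tested myeloid genes passed in either direction. At an unadjusted p below 0.05 in edgeR, 0 T cell genes, 1 myeloid gene and 1 stromal gene were lower, and 0 of the immune and stromal genes were higher. The part of the larger enterocyte share and of the smaller B and plasma cell share of the RNA in the lower Defa share was not tested.

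Single members mostly moved the same way. Of the 24 members above 10 mean counts, 23 passed the filter on low counts, and 16 of these were lower in cKO at an adjusted p below 0.05 (edgeR, adjusted over all genes by Benjamini-Hochberg). None was higher, at an unadjusted p below 0.05 in edgeR or in DESeq2 either. Of all 14719 genes tested, 12.7% were lower and 15.6% higher by this rule. The median log2 fold change of the 23 members was -0.68, beside -0.03 over all genes tested. For 13 of the 23, every cKO library was below every WT library in scaled CPM, which was true of 7.63% of all genes tested.

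The 5 members of highest mean count made up 88.4% of the Defa sum on average. Defa24 stood highest per length, at 25037 ± 3217 TPM, the authors' length-scaled unit, in WT and 16086 ± 2377 TPM in cKO (SD, n = 5 each). In scaled CPM, Defa24 was 5785, 5726, 7471, 5690 and 6423 in WT replicates 1 to 5, and 4838, 4267, 5011, 3727 and 3544 in cKO replicates 1 to 5. The genotypes did not overlap, and the log2 fold change was -0.54 ± 0.12 (SE, adjusted p = 0.00654, edgeR). None of its 99-base windows occurs in another annotated gene, yet its expected count was fractional in every library. How much this value depends on the division of reads was not measured.

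Defa17 was 3230, 3287, 4214, 3289 and 3523 CPM in WT and 2226, 2238, 2247, 1874 and 1779 CPM in cKO. No cKO value reached the lowest WT value, with a log2 fold change of -0.76 ± 0.10 (SE, adjusted p = 0.000799, edgeR). Defa30 was 2613, 2789, 3492, 2834 and 3183 CPM in WT and 2082, 1916, 2007, 1536 and 1514 CPM in cKO. Defa30 did not overlap between genotypes either, and its log2 fold change was -0.72 ± 0.12 (SE, adjusted p = 0.00153, edgeR).

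Defa23 was 1632, 1421, 2045, 1534 and 1641 CPM in WT and 1107, 1290, 1306, 803 and 799 CPM in cKO. Its partner of the same coding sequence, Defa31, was 1488, 1775, 2077, 1603 and 1721 CPM in WT and 1109, 980, 936, 953 and 831 CPM in cKO. Both were lower in every cKO library than in any WT library. Their log2 fold changes were -0.64 ± 0.16 for Defa23 and -0.85 ± 0.10 for Defa31 (SE, adjusted p = 0.0112 and 0.000581, edgeR). Joined into 1 feature, Defa23 and Defa31 gave -0.74 ± 0.12.

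The remaining members that were lower had log2 fold changes of -0.45 for Defa37, -0.75 for Defa3, -0.68 for Defa29, -0.62 for Defa26, -0.95 for Defa21, -0.82 for Defa22 and -0.70 for Defa20. Among them were also the pseudogenes Defa-ps6 at -0.68, Defa-ps1 at -0.66, Defa-ps18 at -0.76 and Defa-ps7 at -1.29. Defa-ps7 had the largest change in absolute value, on few reads. WT replicates 1 to 5 had 0.870, 0.482, 1.36, 0.938 and 0.436 CPM, and cKO replicates had 0.573, 0.369, 0.140, 0.238 and 0.341 CPM. These ranges overlapped, and its call (SE 0.41, adjusted p = 0.0339, edgeR) was lost when any 1 of 7 animals was left out (WT replicates 1, 3 and 4 and cKO replicates 2 to 5, adjusted p up to 0.0931). The call of Defa-ps18 was likewise lost without WT replicates 1, 3 or 4 or cKO replicates 1 to 4 (adjusted p up to 0.0760, edgeR), and that of Defa-ps1 without WT replicate 4 (adjusted p = 0.0504, edgeR). The 4 expressed pseudogenes and the other pseudogene members together made up only 0.0588% of the Defa sum in WT and 0.0553% in cKO.

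The 7 members that did not pass the threshold were Defa2 (log2 fold change -0.38), Defa28 (-0.31), Defa33 (-1.19), Defa34 (-0.30), Defa35 (-0.85), Defa5 (-0.45) and Defa36 (0.11). Defa36 was the one value above 0 and the smallest in absolute terms. Defa5 passed without WT replicate 4 (adjusted p = 0.0220, edgeR). Defa36 stood at 36.7, 37.2, 35.3, 28.3 and 40.8 CPM in WT replicates 1 to 5 and at 40.0, 52.1, 49.1, 23.7 and 28.2 CPM in cKO replicates 1 to 5. The cKO animals lay on both sides of the WT range, and the log2 fold change was 0.11 ± 0.21 (SE, adjusted p = 0.707, edgeR). Its sign turned to -0.014 under scaling by library size only and to -0.020 without cKO replicate 2.

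**Figure D2:**
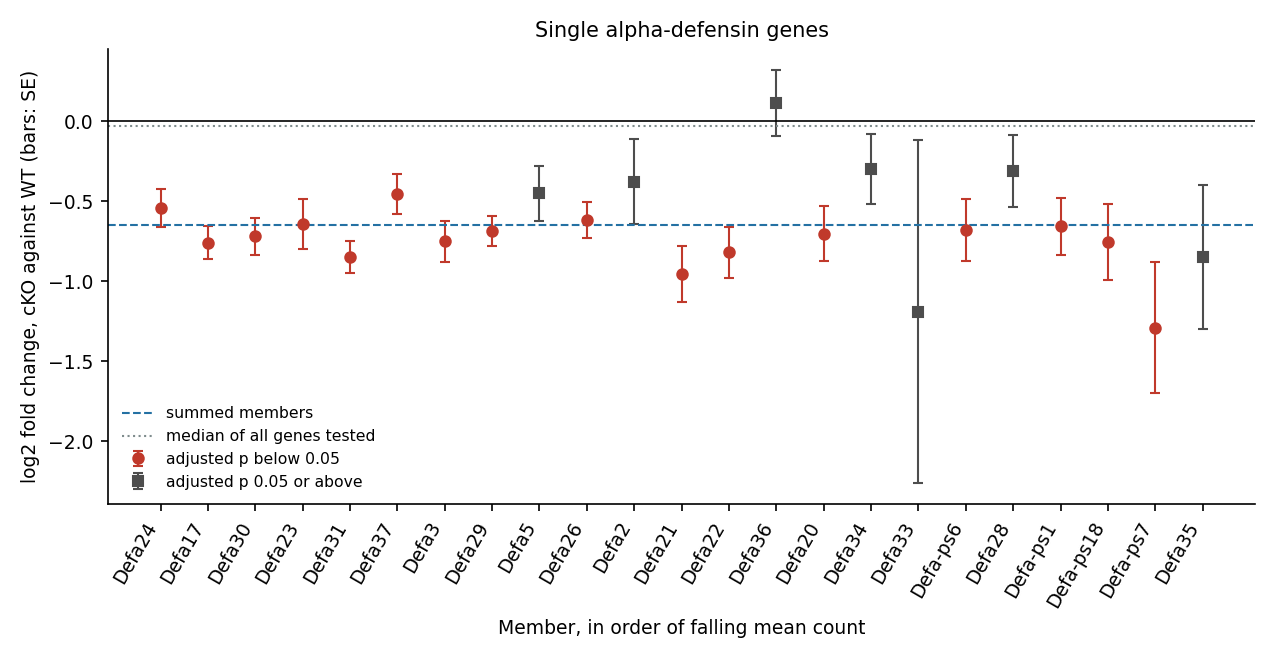
Each point is the log2 fold change of 1 member, cKO against WT, with its standard error from edgeR. Members are in order of falling mean count, circles mark those with an adjusted p below 0.05 and squares the others, the dashed line marks the summed members at -0.65 and the dotted line the median of all genes tested at -0.03. Of 23 members 22 lie below 0, and Defa36 lies at 0.11.

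The pairs with identical coding sequences show how far the division of reads reaches. Defa37 and Defa36 were assigned unlike changes, -0.45 ± 0.13 and 0.11 ± 0.21, although no 99-base window is particular to Defa37. Joined into 1 feature, they gave -0.42 ± 0.13 (SE, adjusted p = 0.0257, edgeR). Defa33 was assigned 0 counts in cKO replicate 1, 0.07 in cKO replicate 3 and 1.86 CPM in WT replicate 2, and Defa32, which failed the filter, was at 6.53, 10.1 and 14.5 CPM, here without TMM scaling, in those same libraries in that order and below 1 CPM in the other 7. Every 99-base window of Defa33 also occurs in Defa2, Defa20 or Defa32.

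Joined, Defa2 and Defa33 had a log2 fold change of -0.48 ± 0.20 (SE, adjusted p = 0.101, edgeR), and Defa20 and Defa32 one of -0.60 ± 0.15 (SE, adjusted p = 0.0111, edgeR). With all pairs of the same coding sequence joined, 14 of 19 features were lower in cKO and none was higher. Of all 14715 features in that fit, 1868 were lower and 2299 higher.

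**Figure D3:**
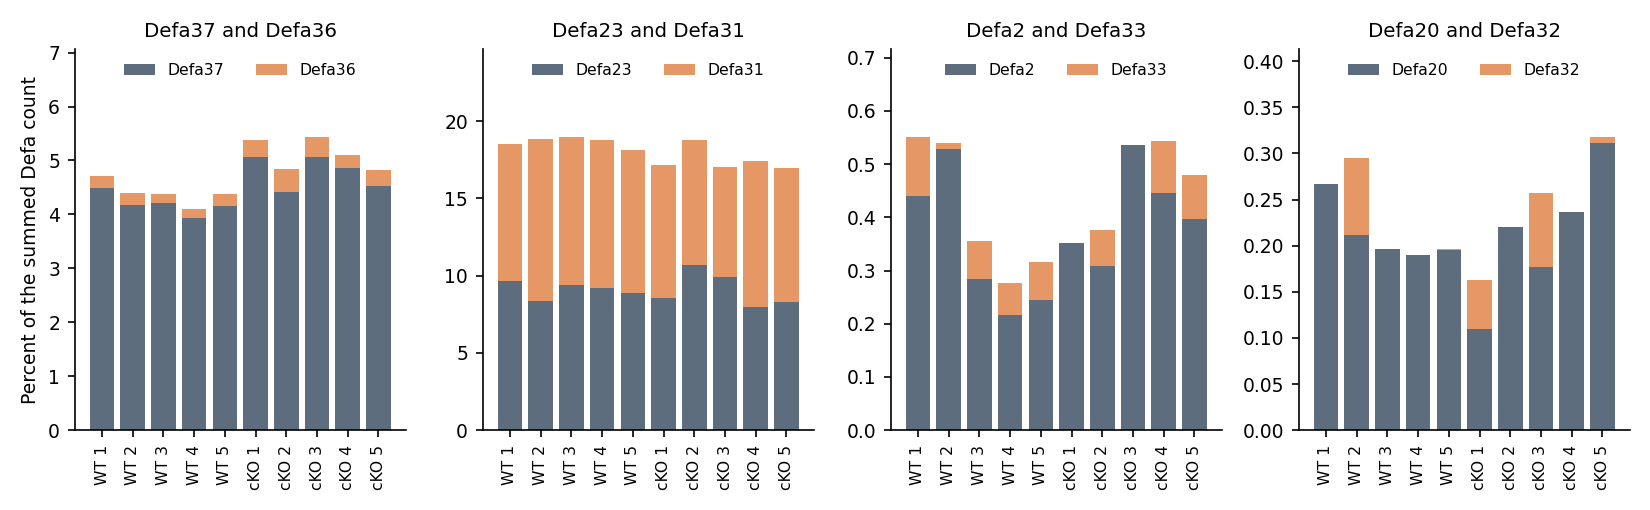
Stacked bars show, for each of the 10 libraries, the percent of the summed Defa count assigned to both members of a pair with the same coding sequence. Defa36 is a thin layer on Defa37 in every library, Defa33 is at or near 0 in cKO 1 and cKO 3, and Defa32 is present mainly in WT 2, cKO 1 and cKO 3.

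The make-up of the Defa pool was then compared apart from its size, as each member's percent of the summed Defa count. Of 24 shares, 3 did not overlap between the genotypes (12.5% of the shares), Defa24 and Defa36 being higher and Defa17 lower in cKO. The total leaves out alpha-defensin-like genes under other symbols, described below, whose counts came to 30.3% of it in WT and 28.6% in cKO. With them in the total, Defa17 of cKO replicate 4 would lie above that of WT replicate 1, while Defa24 and Defa36 would still separate. In scaled CPM, a measure unlike shares of 1 total, 19.6% of all genes tested did not overlap in either direction. Defa24 made up 34.3%, 33.7%, 34.4%, 34.1% and 34.7% of the pool in WT replicates 1 to 5 and 37.5%, 35.3%, 38.1%, 36.9% and 36.9% in cKO replicates 1 to 5. The mean was 34.2% ± 0.4 in WT and 36.9% ± 1.0 in cKO (SD, n = 5 each), with an unadjusted p of 0.00794 in the exact permutation test, over 24 shares that are parts of 1 total.

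Defa17 made up 19.2%, 19.4%, 19.4%, 19.7% and 19.0% in WT and 17.3%, 18.5%, 17.1%, 18.6% and 18.5% in cKO. Defa36 made up 0.218%, 0.219%, 0.163%, 0.170% and 0.220% in WT and 0.310%, 0.430%, 0.373%, 0.235% and 0.294% in cKO. Both shares gave the same smallest exact p, 0.00794, in opposite directions. Defa31 and Defa37 overlapped between genotypes but also had an unadjusted exact permutation p below 0.05, at 9.55% ± 0.59 against 8.38% ± 0.85 (p = 0.0238) and 4.20% ± 0.20 against 4.79% ± 0.30 (p = 0.0159; SD, n = 5 each). The shares of Defa30 and Defa23, at 16.4% and 9.10% in WT and 15.6% and 9.09% in cKO, did not pass (exact permutation p = 0.0714 and 0.976).

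The differences were then recomputed in ways that depend less on shared reads. With members of the same coding sequence joined, 3 of 19 shares did not overlap. Defa24 stayed as it was, Defa17 with Defa3 went from 21.6% ± 0.3 in WT to 20.1% ± 0.8 in cKO, and Defa37 with Defa36 from 4.39% ± 0.22 to 5.11% ± 0.29 (SD, n = 5 each; exact permutation p = 0.00794 for each). Among the 12 members with at least 50% of their 99-base windows unique, as shares of their own sum, Defa24 alone kept the genotypes apart, with 63.6% ± 0.6 for WT and 66.4% ± 0.8 for cKO (exact permutation p = 0.00794). Defa30, the other abundant one of these 12, was at 30.5% ± 1.0 and 28.1% ± 0.9 with overlapping ranges (exact permutation p = 0.0159). Both ways were chosen after the shares had been seen.

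**Figure D4:**
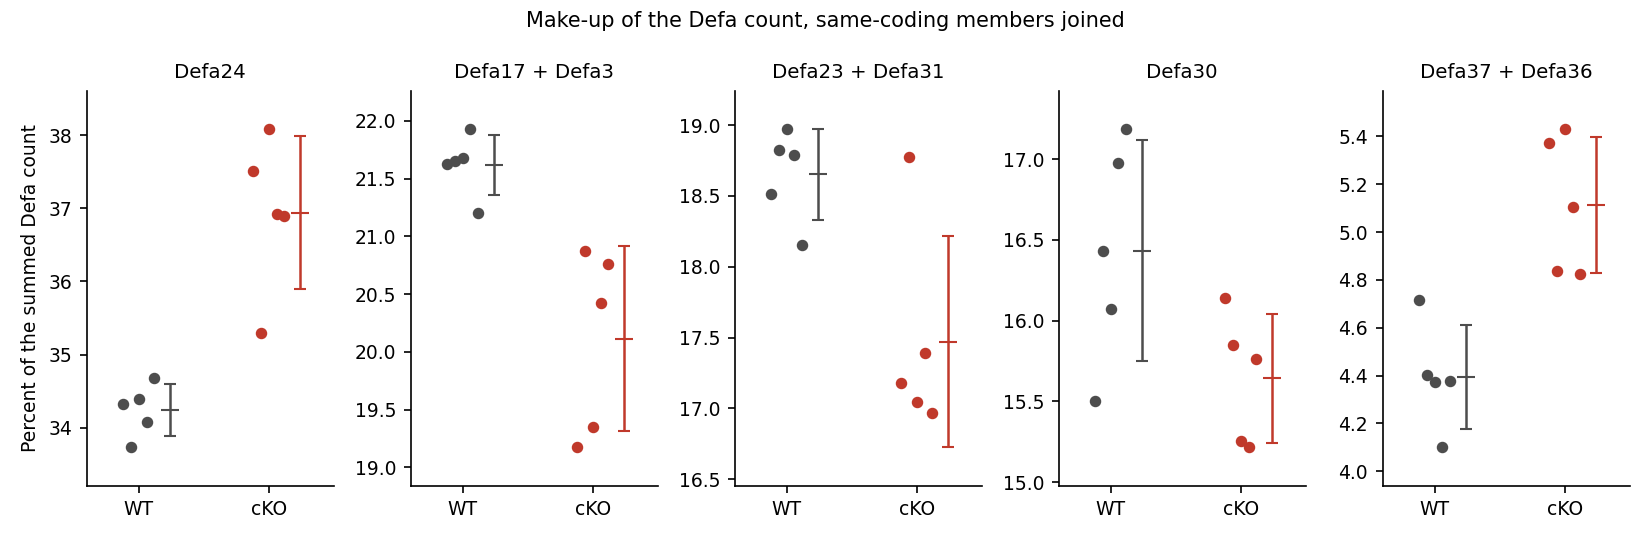
Points give, for each animal, the percent of the summed Defa count held by a member or by members of the same coding sequence joined, with the mean and SD beside them (n = 5 each), and the y axes do not start at 0. Defa24 and Defa37 with Defa36 lie higher in all 5 cKO animals than in any WT animal, Defa17 with Defa3 lies lower, and the other panels overlap.

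When members were joined into groups by transcript identity of at least 95%, 7 groups exceeded 10 mean counts and all 7 were lower in cKO (edgeR, adjusted p 0.000808 to 0.043; 12.7% of features in that fit were lower). The group of Defa17, Defa24, Defa3, Defa31, Defa30 and Defa23 held 90.9% ± 0.7 of the pool in WT and 90.2% ± 0.4 in cKO (SD, n = 5 each). The group of Defa35, Defa34, Defa37, Defa5 and Defa36 held 5.28% ± 0.37 and 6.13% ± 0.36 (unadjusted exact permutation p = 0.0238), with 1 WT library inside the cKO range. None of the 7 group shares separated the genotypes.

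The log2 fold changes of the groups ran from -0.89 ± 0.17 for Defa21 with Defa22 to -0.43 ± 0.13 for the group of Defa37 (SE, adjusted p = 0.00381 and 0.0275, edgeR). The calls of the Defa37 group and of the group of Defa33, Defa32, Defa20 and Defa2 (-0.52 ± 0.17) were lost without some single animals. For the first these were WT replicates 3 and 5 and cKO replicates 2, 4 and 5 (adjusted p up to 0.0682, edgeR), and for the second every animal but WT replicate 4 and cKO replicate 3 (adjusted p up to 0.0990, edgeR).

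The expressed alpha-defensin-like genes of the locus that are not members were lower as well. Inside the same interval, 13 genes resemble alpha-defensins in sequence but carry other symbols in the annotation used, and 5 of them had more than 10 mean counts. RefSeq names these Defa38 (Gm14851), Defa39 (AY761184), Defa40 (Gm15292), Defa41 (Gm15293) and Defa43 (Gm7861). Their log2 fold changes were -0.73, -0.72, -0.81, -0.66 and -0.76, each with an adjusted p of at most 0.0174 (edgeR). Their counts came to 30.3% ± 1.5 of the Defa sum in WT and 28.6% ± 1.8 in cKO (SD, n = 5 each; exact permutation p = 0.151). With them the pool took 2.47% ± 0.28 of the library in WT and 1.42% ± 0.19 in cKO. None of 43 beta-defensin genes, a related family, passed the filter, and 38 were listed at 0 in every library.

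Other Paneth cell products were compared with the Defa sum in the same libraries. Lyz1, the lysozyme of Paneth cells, stood at 6573, 5063, 9342, 6485 and 5571 CPM in WT and 5050, 4378, 4753, 3779 and 3874 CPM in cKO. Its log2 fold change was -0.60 ± 0.15 (SE, adjusted p = 0.0134, edgeR), with the lowest WT animal just above the highest cKO animal. The log2 ratio of the Defa sum to Lyz1 was 1.36, 1.75, 1.22, 1.36 and 1.73 in WT replicates 1 to 5 and 1.35, 1.47, 1.47, 1.42 and 1.31 in cKO. The cKO animals lay within the WT range and the difference of -0.08 did not pass (exact permutation p = 0.452).

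Mmp7, the prodefensin convertase, stood at 168, 129, 233, 180 and 154 CPM in WT and 115, 98.5, 93.4, 61.8 and 60.9 CPM in cKO. No cKO animal reached the lowest WT animal, and the log2 fold change was -1.01 ± 0.21 (SE, adjusted p = 0.00678, edgeR). Of 14 Paneth genes other than alpha-defensins, 11 were lower, none was higher (also at an unadjusted p below 0.05 in edgeR), and Mptx1 (0.08), Ang4 (-0.34) and Pla2g2a (-0.44) did not pass. The median of the 14 was -0.65, and 12.7% of all genes tested were lower by the same rule. The log2 ratio of the Defa sum to their sum was 0.83 ± 0.20 in WT and 0.78 ± 0.05 in cKO (SD, n = 5 each; exact permutation p = 0.651).

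Of 15 regulators of the Paneth programme, 6 were lower, 2 were higher and 7 did not pass, with a median of -0.30. Of all genes tested, 12.7% were lower and 15.6% higher, so the number of regulators that were higher was near that share. Lower were Atoh1 (-0.31), the factor that sets secretory fate, Spdef (-0.47), which acts in goblet and Paneth maturation, Bhlha15 (-1.01), a factor of secretory cell structure, the Notch ligand Dll4 (-0.40), the autophagy gene Atg16l1 (-0.30), and the kinase gene Lrrk2 (-2.04). Higher were Tcf7l2 (0.39), the WNT effector, and the WNT receptor gene Fzd5 (0.28), whose ranges overlapped between genotypes. Sox9 (-0.37, adjusted p = 0.0543, edgeR), a factor needed for Paneth cells to form, Gfi1 (-0.22), Xbp1 (0.02), Ephb3 (-0.44), Nod2 (-0.15), Ripk2 (-0.27) and Kit (-0.09) did not pass.

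Promoter sequences from RefSeq (GRCm38.p6) were matched for 12 members. The 250 bases before the start are shown for Defa30, an abundant member that was lower, and for Defa36, whose promoter is identical to that of Defa37 over this window (0 differing bases). Capitals mark TATAAA and TCAAAG, the latter being CTTTGA, a TCF/LEF core, on the other strand.
Defa30 (chr8:21134400-21134649, plus strand): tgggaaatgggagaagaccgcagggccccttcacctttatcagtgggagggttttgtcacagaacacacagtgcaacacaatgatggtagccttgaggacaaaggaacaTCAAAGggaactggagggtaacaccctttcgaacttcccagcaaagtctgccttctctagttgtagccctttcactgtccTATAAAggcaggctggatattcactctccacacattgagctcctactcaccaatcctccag
Defa36 (chr8:21427178-21427427, plus strand): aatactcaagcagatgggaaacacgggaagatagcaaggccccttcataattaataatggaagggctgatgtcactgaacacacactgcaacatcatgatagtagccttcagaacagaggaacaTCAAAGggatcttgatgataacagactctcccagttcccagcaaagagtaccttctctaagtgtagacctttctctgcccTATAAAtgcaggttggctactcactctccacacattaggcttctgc

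Searched on both strands, CTTTGA was present in 12 of 12 member promoters and in 13.8% of all 32851 promoters of that length. TATAAA was present in 11 of 12, all but Defa28, beside 12.4% of all promoters. CTTTGT, the second TCF/LEF core, was in 9 of 12 and in 16.5% of all, and CCAAT in 8 of 12 and in 33.8%. CAAAG, a short HNF4 motif contained in every CTTTGA or CTTTGT match on the other strand, was in 12 of 12 and in 48.6%. ATTAAA, the core of the ARID3A motif, and GTTAAT, an HNF1 motif, were in none of the 12 windows and in 12.7% and 6.43% of all promoters. These are matches of letters in near-copied sequences and not sites of binding.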

How the data were processed

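Gene-level tables of 10 libraries were used, 1 per animal, with groups and replicate numbers from the labels. The authors aligned reads with STAR and counted them with RSEM on GRCm38 (Ensembl annotation) and deposited, per gene, an expected count, TPM and an effective length, none of them normalized between libraries. Where a read fits several genes, RSEM gives each a fraction of it, so near-identical defensins share reads. Strandedness was not given in the sources used here. Symbols came from GENCODE M21, which named 54723 of 54838 genes; the 115 others held 0.0193% of the counts.

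After rounding, expected counts were fitted with edgeR 4.0.16 (R 4.3.3), using filterByExpr (minimum count 10, total 15), TMM, and the robust quasi-likelihood test on genotype, with Benjamini-Hochberg adjustment over all 14719 genes and a threshold of 0.05. For the sum, the groups and the joined pairs, members were added up and entered as 1 feature. The study's methods used DESeq2, tried here as an alternative (version 1.42.0) with limma-voom (limma 3.58.1). Levels are TMM-scaled CPM. Shares and ratios were compared by exact permutation of the genotype labels, two-sided, with 252 assignments (scipy 1.17.1). The code was tested on simulated counts.

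Totals of 27050455 to 31053622 counts leave members near 1 CPM with a large counting error. Windows of 99 bases match the difference between transcript length and effective length in the files. The members, gene lists and tests were chosen with earlier results of these data known. All members above 10 mean counts were named. Values in every sample were given for Arid3a, the sum, Lyz1, Mmp7, the 5 members of highest count, those of largest and smallest change, and up to 4 members whose shares did not overlap.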

Additional observations from a re-analysis of the deposited data

Results flagged for a closer look

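WT replicate 3 stood above the other 4 WT animals in the Defa sum by more than the 95% limit of Dixon's test for a single outlying value. Its summed expected count was 640203, beside 484093 to 509201 in the other WT animals, which is 2.27% of the library beside 1.75% to 1.86%. In the authors' TPM it was 9.28% beside 6.90% to 7.55%. The alpha-defensin-like genes under other symbols had 193734 counts in this animal, beside 144735 to 156805, and with them the pool took 2.96% of the library, beside 2.30% to 2.39%. Lyz1 and Mmp7 were also highest in this animal. The 5 flags are readings of 1 library and not independent, and of 72 such checks chance alone would flag about 1 in 20. Without it the summed log2 fold change was -0.58, and the difference in mean share was -0.696 percentage points (exact permutation p = 0.0159, the smallest that 4 against 5 can give).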

How the results depend on the processing

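The summed count kept its direction and its call under all 21 alternatives, with log2 fold changes of -0.78 to -0.58 and adjusted p of 4.75e-07 to 0.00892. With library sizes alone the median of all genes was -0.16 and the sum -0.78. The share of the library kept its call under all 14 alternatives. The number of members called lower was 14 to 17 under 21 alternatives, while the number of all genes called lower changed more. By library size only, 17 members and 4030 of 14719 genes were lower. Without the filter on low counts, 14 members and 1447 of 27960 genes were lower, beside 16 and 1869 of 14719 in the main fit. The number of shares that did not overlap was 3 or 4 in all but 1 of 16 alternatives, and was 1 among the members with at least 50% of windows unique, where fewer members were compared. The number of groups called was 1 at 90% identity and 11 at 98%, since the number of groups itself changed, and 5 to 7 without single animals. The difference between Defa sum and other Paneth genes, which never passed (exact permutation p from 0.317 to 0.952), turned to 0.026 with a list without Lyz1, to 0.036 with the mean of log2 values, and ran from -0.099 to 0.019 without single animals. Defa36 turned to -0.014 by library size only and ran from -0.020 to 0.25 without single animals.

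Same-numbered WT and cKO animals did not deviate together, with correlations of -0.16 to 0.13 and 0 of 5 animals closest to their own number, so the numbers were not taken as pairs. With the replicate number as a block the sum was -0.66, 14 members and 6 groups were called, and Defa5 was called (-0.46, adjusted p = 0.0330, edgeR), as it was by DESeq2 and with library sizes alone. The calls of Defa-ps1, Defa-ps18, Defa-ps7 and the group of Defa2 were lost under the block, where 1191 of all 14719 genes were lower.

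Depth limits Defa35, Defa28, Defa-ps1, Defa-ps18 and Defa-ps7, each under 3 CPM in every library. The split of reads limits every member whose coding sequence is shared, and also others with few windows of their own, such as Defa5 and Defa34.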
